A study of Mus musculus with 4 samples.

Results

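Egr1, Egr2, Egr3 and Egr4, with Nr4a1, Nr4a2 and Nr4a3, are transcription factor genes that neurons switch on within minutes of activity. These 7 genes were taken by symbol from the 28193 genes of the deposited table, each symbol matched 1 row, and all 7 passed the filter on low counts. fosTRAP-seq pulls down RNA on tagged ribosomes of neurons that expressed Fos in a tagging window, and here it was compared between a sleep deprived (SD) and a non sleep deprived (NSD) group with n = 2 libraries each. All mice were male and the study names them as C57BL/6J, aged 3 to 5 months, given a pair of viral vectors in dorsal CA1, a Fos-driven, tamoxifen-dependent Cre and a Cre-dependent HA-tagged Rpl22, while the labels give the genotype as cFos-Cre:Ribotag and the tissue as dorsal hippocampus. Both groups received 4-hydroxytamoxifen and were kept awake for 5 h on day 0, so the tagging was aimed in both at cells active in that first bout. The paper also reports background tagging in mice given vehicle in place of the drug. On day 7 the SD mice were kept awake for another 5 h by gentle handling and the NSD mice were left undisturbed, and CA1 was taken at Zeitgeber time 5. Each library pooled CA1 from 5 mice, so the 10 mice of a group gave only 2 values per gene, and every standard deviation (s.d.) below is a spread between such pools.

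The Egr proteins bind GC-rich DNA through zinc fingers, and their genes are classic targets of the ERK kinases, which act through serum response factor (SRF) and its ternary complex partners at CArG boxes. The Nr4a proteins (Nur77, Nurr1 and NOR1) are nuclear receptors that work without a known physiological ligand, and their genes respond strongly to cyclic AMP and calcium through CREB at cyclic AMP response elements (CREs). In the hippocampus both families are used as markers of recent neuronal activity, and both are needed for lasting memory.

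The promoters of Egr2 and Nr4a3 are shown because between them they hold, in letters, both kinds of response element named above. Each line is the sense strand of GRCm39 from 110 to 31 bases before the start of the gene's canonical transcript in GENCODE, at chr10:67373582-67373661 for Egr2 and chr4:48045043-48045122 for Nr4a3, both on the plus strand. Capitals mark a CArG box or a CRE core (TGACG, or CGTCA where it lies on the other strand). In the Egr2 stretch, 10 bases lie in an exon of another of its transcripts.
Egr2: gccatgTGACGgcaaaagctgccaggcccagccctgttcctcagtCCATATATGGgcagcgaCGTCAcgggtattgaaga
Nr4a3: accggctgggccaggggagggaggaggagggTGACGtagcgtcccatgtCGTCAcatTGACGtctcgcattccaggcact

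The Egr2 stretch has a CArG box with a CRE core on either side, and that of Nr4a3 has 3 cores and no CArG box. The 300 bases before the canonical start were searched on both strands in Egr1, Egr2, Egr4, Nr4a1, Nr4a2 and Nr4a3 and in 21770 protein-coding genes. Of these 6 windows that of Egr2 alone held a CArG box, as did 1.69% of all promoters. A CRE core was present in 5 of the 6, with Nr4a2 as the exception, and in 19.9% of all promoters. The full CRE (TGACGTCA, which contains the core; 1.75% of all promoters), the Egr binding site (GCGGGGGCG or GCGTGGGCG; 3.05%) and the Nr4a binding site NBRE (AAAGGTCA; 1.42%) were in none of the 6 windows, and the TATA letters TATAAA (14.2%) were in that of Nr4a1 alone. A match describes letters in this window only, and other start sites of the same genes were not searched. A missing match, such as that of the CArG box in Egr1, therefore does not show that the gene lacks the element.

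The libraries summed to between 153511705 and 195910235 estimated counts, with TMM scaling factors from 0.965 to 1.02. Levels are in CPM, the library's share of counts on a common scale after these factors were applied. The 22338 genes that exceeded 5 counts throughout entered edgeR's quasi-likelihood test, which held condition alone, and a call required both a Benjamini-Hochberg adjusted p below 0.05 and at least a 1.2-fold difference. The labels also carry a batch number, 1 or 2, that equals the replicate number, with an NSD and an SD library in each batch. The same test with this number as a replicate block is given wherever it changes a call. TEC genes, Ensembl's class of transcripts that await evidence, took 0.273% and 0.210% of all NSD counts and 0.157% and 0.118% of all SD counts, and their part in the results below was not tested.

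All 7 genes had positive log2 fold changes in SD, with a median of 0.38, where the median was -0.016 over all genes tested and 0.018 over the 15551 protein-coding genes. Nr4a1 alone was called with condition as the only term, where 0.77% of all genes were called higher. With the replicate block Egr1, Egr4, Nr4a1 and Nr4a2 were called, against 2.99% of all genes and 3.77% of protein-coding genes called higher. DESeq2 called the same 4 genes, against 2.99% of all genes and 3.91% of protein-coding genes. For these 4 the lower SD value exceeded the higher NSD value, an order found in 26.5% of protein-coding genes. Egr2, Egr3 and Nr4a3 were called by none of the 3 fits.

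**Figure D1:**
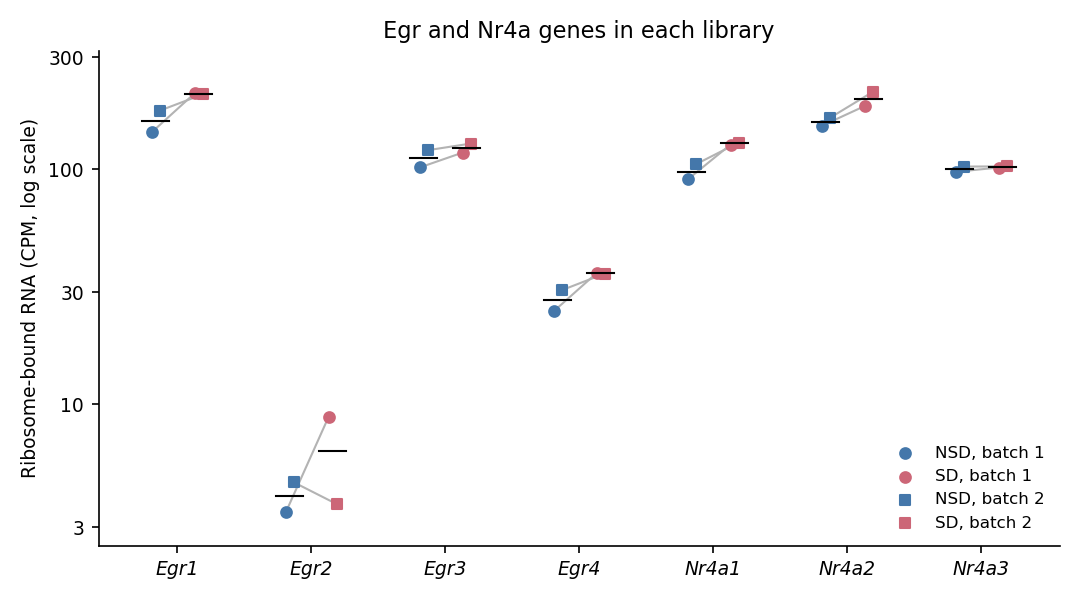
Each point is 1 library, in CPM on a log scale, with circles for batch 1, squares for batch 2, grey lines joining the NSD and SD library of a batch and black bars at the group means. The SD points of Egr1, Egr4 and Nr4a1 nearly coincide above both NSD points, and Egr2 rises in batch 1 and falls in batch 2.

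Egr1 (ENSMUSG00000038418, chromosome 18 from 34992876 to 34998037, plus strand, GRCm39) encodes the zinc finger factor also known as Zif268. It stood at 144 and 178 CPM in the NSD libraries and at 211 and 209 CPM in the SD libraries. Both SD values lay above both NSD values, and the SD libraries differed from each other far less than the NSD libraries did. The mean went from 161 ± 24.1 CPM (s.d., n = 2) to 209.7 ± 1.54 CPM (s.d., n = 2), which gave 0.38 as the log2 fold change (standard error 0.10, 95% interval 0.15 to 0.62, edgeR adjusted p = 0.0840). With the replicate block the log2 fold change was 0.39 and the edgeR adjusted p 0.00433, and Egr1 was called. Within batches the log2 difference was 0.55 in batch 1 and 0.23 in batch 2.

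Egr4 (ENSMUSG00000071341, chromosome 6 from 85488103 to 85490571, minus strand) encodes a family member of more restricted expression. Its NSD libraries were at 24.9 and 30.6 CPM and its SD libraries at 36.2 and 36.0 CPM. As in Egr1, the SD libraries nearly coincided and neither overlapped the NSD range. The log2 fold change was 0.38 (standard error 0.10, edgeR adjusted p = 0.0818), and with the replicate block it was 0.39 with an edgeR adjusted p of 0.00476, so that Egr4 was called there. The CPM ratio of Egr1 to Egr4 was 5.78 and 5.81 in NSD and 5.83 and 5.79 in SD. The s.d. of this ratio over the 4 libraries was 0.348% of its mean, below the 1.31% to 1.69% that counting error alone gives a single library's ratio. A later GENCODE release than the one counted gives Egr4 a longer gene model, from 85485678 to 85490675. It places an antisense gene, Gm67895, over 1011 exon bases of that model. How many of these bases lie in the counted locus was not computed, and whether the counting used strand is not given in the sources used here.

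Egr3 (ENSMUSG00000033730, chromosome 14 from 70314652 to 70320063, plus strand) encodes a factor that shares targets with Egr1. It stood at 102 and 121 CPM in NSD and at 118 and 129 CPM in SD, so the groups overlapped, with NSD library 2 above SD library 1. The log2 fold change was 0.15 (standard error 0.093, 95% interval -0.065 to 0.36, edgeR adjusted p = 0.458), and 0.15 with an edgeR adjusted p of 0.112 with the block. In fold terms the interval ran from 0.956 to 1.28, so it held both no change and a rise past the 1.2-fold threshold. Leaving out NSD library 1 brought the log2 fold change to 0.061, and leaving out NSD library 2 brought it to 0.275. Egr1 made up 52.5% and 53.3% of the summed Egr CPM in NSD and 56.4% and 55.3% in SD, while Egr3 made up 37.2% and 36.2% in NSD and 31.6% and 34.1% in SD.

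Egr2 (ENSMUSG00000037868, chromosome 10 from 67371305 to 67378018, plus strand), which encodes Krox20, a factor best known from Schwann cell myelination, was the least abundant member. The NSD counts were 574 and 731 and the SD counts 1598 and 711, or 3.46 and 4.65 CPM against 8.84 and 3.76 CPM. A single library, SD library 1, stood apart, at 2.35 times SD library 2, whereas no other member differed by more than 1.15-fold between its SD libraries. The log2 fold change was 0.64 (standard error 0.35, 95% interval -0.16 to 1.43, edgeR adjusted p = 0.379). It was 1.35 within batch 1 and -0.31 within batch 2, and without SD library 1 it was -0.11. Without SD library 2 it was 1.14 with an edgeR adjusted p of 1.2e-05, a fit that takes the spread of the lone SD library from the NSD pair. No direction can be given for Egr2 from these 4 libraries.

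Among the Nr4a genes, Nr4a1 (ENSMUSG00000023034, chromosome 15 from 101152150 to 101172676, plus strand), which encodes Nur77, stood at 90.6 and 105 CPM in NSD and at 128 and 130.1 CPM in SD. The groups did not overlap, and the SD libraries lay within a few CPM of each other. The mean went from 97.9 ± 10.3 to 129 ± 1.74 CPM (s.d., n = 2 each), and the log2 fold change was 0.40 (standard error 0.083, 95% interval 0.21 to 0.59, edgeR adjusted p = 0.0472). Nr4a1 rose, but its call lay near the threshold: it was lost without NSD library 1 (edgeR adjusted p = 0.0852) and under each of 3 other sets of genes tested (edgeR adjusted p = 0.0545 to 0.0734). With the block the edgeR adjusted p was 9.7e-04, and the log2 difference was 0.49 in batch 1 and 0.31 in batch 2. A later GENCODE release places an antisense gene, Gm63180, over 656 of its exon bases.

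Nr4a2 (ENSMUSG00000026826, chromosome 2 from 56996842 to 57014015, minus strand) encodes Nurr1, known for its role in dopamine neurons and also expressed in the hippocampus. It stood at 153 and 166 CPM in NSD and at 186 and 214 CPM in SD. The groups did not overlap, and here the SD pair was the wider of the 2 pairs. The log2 fold change was 0.33 (standard error 0.089, 95% interval 0.12 to 0.53, edgeR adjusted p = 0.0887). With the block it was 0.32 with an edgeR adjusted p of 0.00416, and Nr4a2 was called. Its log2 difference was 0.28 in batch 1 and 0.37 in batch 2, so of the 4 genes called with the block Nr4a2 was the 1 whose difference was smaller in batch 1.

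Nr4a3 (ENSMUSG00000028341, chromosome 4 from 48045153 to 48086447, plus strand), which encodes NOR1, had the narrowest spread of the members. Its libraries stood at 97.7 and 103 CPM in NSD and at 102 and 103 CPM in SD, and NSD library 2 lay between the SD libraries. The log2 fold change was 0.031 (standard error 0.066, edgeR adjusted p = 0.864). Its 95% interval ran from -0.12 to 0.18, which in fold terms is 0.921 to 1.13 and lies under the fold change of 1.2 needed for a call. The log2 difference was 0.060 in batch 1 and 0.003 in batch 2.

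**Figure D2:**
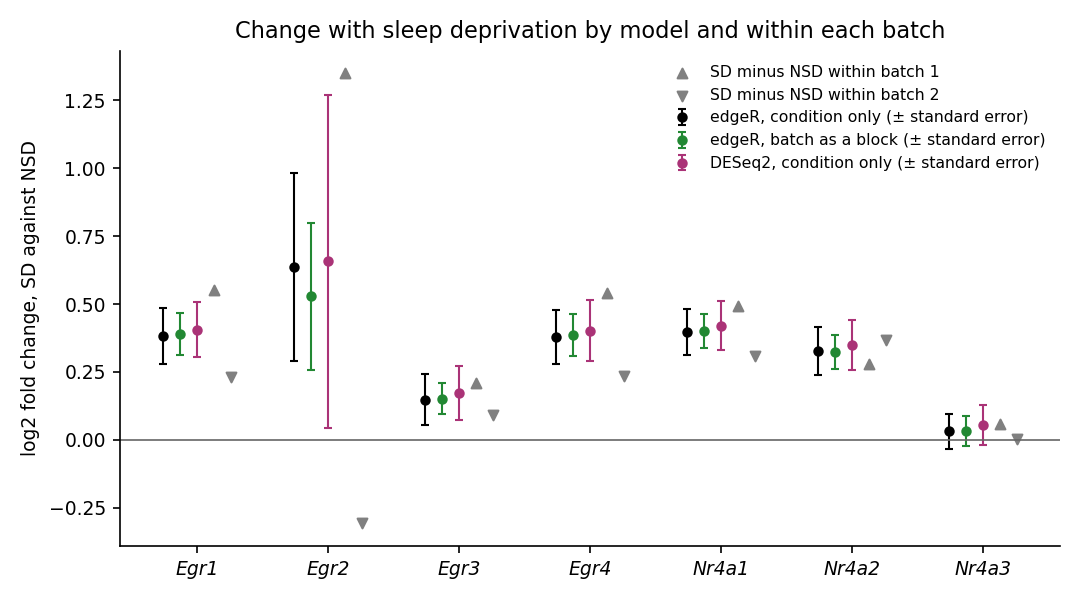
Log2 fold change of SD against NSD for each gene in 3 fits, with bars of ± 1 standard error, and the difference of the single SD and NSD library of each batch as grey triangles. Egr1, Egr4, Nr4a1 and Nr4a2 sit between 0.32 and 0.42 in every fit, Egr3 and Nr4a3 sit closer to 0, and the batch values of Egr2 lie on opposite sides of 0.

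Ratios of genes within a library do not depend on how libraries are scaled, so they compare members directly. The CPM ratio of Nr4a1 to Nr4a3 was 0.928 and 1.02 in NSD and 1.25 and 1.26 in SD, and the groups did not overlap. That of Nr4a2 to Nr4a3 was 1.57 and 1.61 in NSD and 1.83 and 2.07 in SD, and that of Egr1 to Egr3 was 1.41 and 1.47 in NSD and 1.79 and 1.62 in SD, again without overlap. The ratios of Nr4a1 to Nr4a2 and of Egr1 to Nr4a1 overlapped between the groups. For these ratios and that of Egr1 to Egr4, 6 pairs in all, the two-sided exact permutation test of the log2 ratio cannot go below p = 0.333 with 2 libraries against 2. This exact permutation test gave p = 0.333 (adjusted 0.667) for the 3 pairs without overlap, p = 0.667 for Egr1 to Egr4 and for Nr4a1 to Nr4a2, and p = 1 for Egr1 to Nr4a1. With that floor the test bears neither on a difference between members nor on its absence. The summed Egr CPM was 1.36 times higher in SD within batch 1 and 1.13 times higher within batch 2, and the summed Nr4a CPM 1.22 times higher in batch 1 and 1.196 times in batch 2.

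The order of the levels between genes was set per kilobase of merged exons in GENCODE. Egr1 was highest at 35.8 ± 5.35 CPM per kb in NSD and 46.7 ± 0.343 in SD (s.d., n = 2 each), above 96.4% of protein-coding genes on its mean over the 4 libraries. Egr3 (21.7 to 27.4 CPM per kb over the 4 libraries) and Nr4a2 (18.7 to 26.04) followed and overlapped each other. Nr4a3 (16.3 to 17.2), Nr4a1 (8.31 to 11.9), Egr4 (5.32 to 7.74) and Egr2 (1.02 to 2.60) came next, on these lengths without overlap between neighbours. Egr4 was divided by 4677 bases of a gene model from 85485678 to 85490675, which is longer than the locus counted. Its level per kb is therefore understated on both length scales, and its place next to Nr4a1 is not settled. The place of Nr4a1 also rests on the length used, since its 29 annotated transcripts merge to 10903 bases where the canonical transcript has 2548 bases. Per kilobase of canonical transcript Nr4a1 stood at 35.6 to 51.1 CPM per kb and overlapped both Egr1 (32.0 to 46.9) and Nr4a2 (32.2 to 44.9), while Egr3, Nr4a3, Egr4 and Egr2 followed in that order without overlap.

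**Figure D3:**
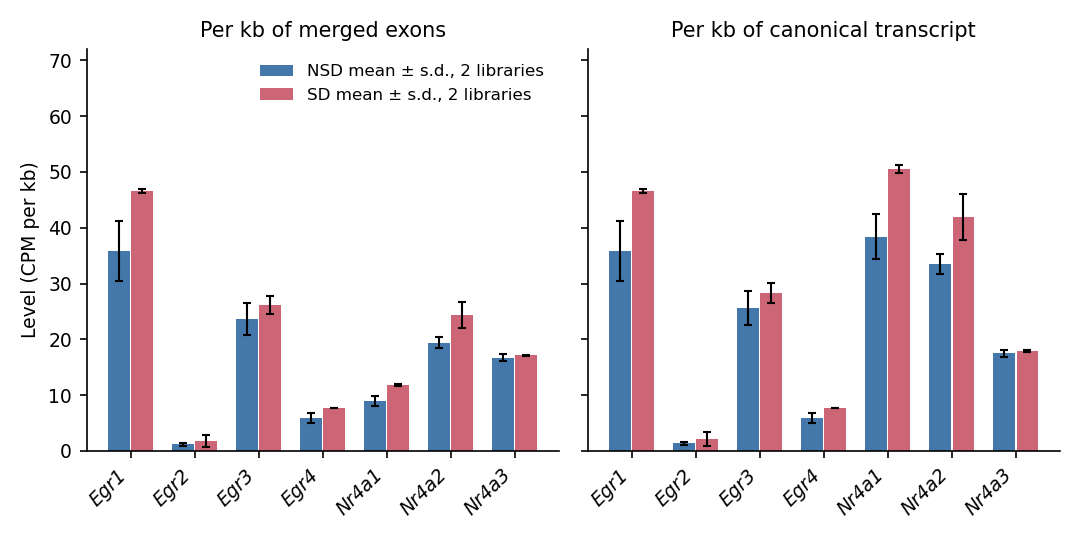
Level in CPM per kb in NSD and SD, with bars at the mean and error bars of ± 1 s.d. over 2 libraries, divided by merged exon length at the left and by canonical transcript length at the right. Nr4a1 is 5th of the 7 genes at the left and level with Egr1 at the right, and Egr2 is lowest on both scales. The bars of Egr4 use a gene model longer than the locus counted, so they are understated.

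The likeness of the members was measured by the Euclidean distance between their log2 CPM values, each centred on its own mean, over the 4 libraries. Egr1 and Egr4 were nearest to each other, at 0.0088, Nr4a1 was nearest to Egr4 at 0.065, and Nr4a2 to Nr4a1 at 0.16. Egr3 and Nr4a3 were each other's nearest member at 0.19, and Egr2 stood far off at 0.87 from Egr1. Of 8629 other protein-coding genes with a mean of at least 10 CPM, the 5 closest to the members' mean profile were Trmt2b (distance 0.012), Tmem268 (0.044), Klhdc8a (0.061), Ahsa2 (0.064) and Dnajc3 (0.070). Their log2 fold changes lay between 0.28 and 0.34. This profile leaned on Egr2 and its outlying SD library 1: the centred mean was 0.22 in SD library 1 and 0.095 in SD library 2 over the 7 members, and 0.11 and 0.17 over the 6 without Egr2. Without Egr2, a choice made after its values had been seen, the nearest 5 were Zfp703, Efr3a, Prss12, Ttc39b and Taf12 (distances 0.015 to 0.023), and 0 of them were among the 5 above. The distance is a description over 4 libraries and carries no test.

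Fos, whose promoter drove the tagging, had no direction that held in these libraries, with 271 and 513 CPM in NSD and 336 and 375 CPM in SD (log2 fold change -0.14, edgeR adjusted p = 0.827). The NSD libraries were the lowest and the highest of the 4, and the log2 fold change of Fos was -0.50 when NSD library 1 was left out, 0.39 when NSD library 2 was, -0.063 when SD library 1 was and -0.20 when SD library 2 was. Rpl22, the tagged ribosomal protein gene, stood at 628 and 1045 CPM in NSD and at 610.2 and 809.5 CPM in SD (edgeR adjusted p = 0.651), so in both groups library 2 held more of it than library 1. The table does not separate vector from endogenous Rpl22 reads, so it does not check the tagging.

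Upstream of the members, the 6 genes of SRF and its cofactors centred on a median log2 fold change of 0.13. None passed edgeR with condition alone, where 4 had an unadjusted p under 0.05, a mark that 19.1% of all genes and 14.6% of protein-coding genes reached in either direction. In the blocked fit Elk4, a ternary complex factor that binds SRF, was called higher (log2 fold change 0.31, edgeR adjusted p = 0.00421). Elk3, the ternary complex factor that can also repress, was called lower there (-0.55, edgeR adjusted p = 0.0257), and DESeq2 called 2 higher and 0 lower. Of 12 CREB, CRTC and MEF2 activators (median 0.082) edgeR called 0 with or without the block and DESeq2 0, with 2 at an unadjusted p under 0.05. Of 11 ERK cascade kinases (median 0.042) edgeR with condition alone called 0 (2 had an unadjusted p under 0.05, a share near those over all genes for both lists). The blocked fit called Rps6ka2, an RSK kinase activated by ERK (log2 fold change 0.32, edgeR adjusted p = 0.00538), as DESeq2 did.

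Among proteins that act with the members, the corepressors Nab1 and Nab2, which bind Egr proteins and restrain them, were named after their values had been seen. Their log2 fold changes were 0.12 and 0.11 (edgeR adjusted p = 0.468 and 0.448), and edgeR and DESeq2 called neither, with 0 at an unadjusted p under 0.05. The 8 Nr4a partners and corepressors had a median of 0.19, with 7 above 0. edgeR called 0 with condition alone (3 at an unadjusted p under 0.05, 2 by DESeq2), and with the block it called 1, higher in SD.

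Downstream, 9 genes described elsewhere as Egr targets centred on a median log2 fold change of 0.049, and 7 were positive. Arc, a synaptic immediate early gene, was the 1 called (0.91, edgeR adjusted p = 0.0328), with 199 and 233 CPM in NSD and 386 and 426 CPM in SD. Its call was lost with the filterByExpr filter (edgeR adjusted p = 0.0628) and held in the other settings tried. Ngfr, the p75 neurotrophin receptor gene, was called with the block at low levels (2.15 and 2.62 CPM against 3.56 and 4.26 CPM, edgeR adjusted p = 0.0100). The 7 described Nr4a targets had a median of 0.23, with 6 above 0. Fosl2, an AP-1 family gene, was called (0.51, edgeR adjusted p = 0.0400), from 147 and 179 CPM in NSD to 230.1 and 234 CPM in SD. Its call was lost without NSD library 1 (edgeR adjusted p = 0.0637), with filterByExpr (0.0656), without a count filter (0.0519) and with protein-coding genes alone (0.0501). Hspa5, the chaperone BiP of the endoplasmic reticulum, was called with the block (0.29, edgeR adjusted p = 0.0154), although its groups overlapped.

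**Figure D4:**
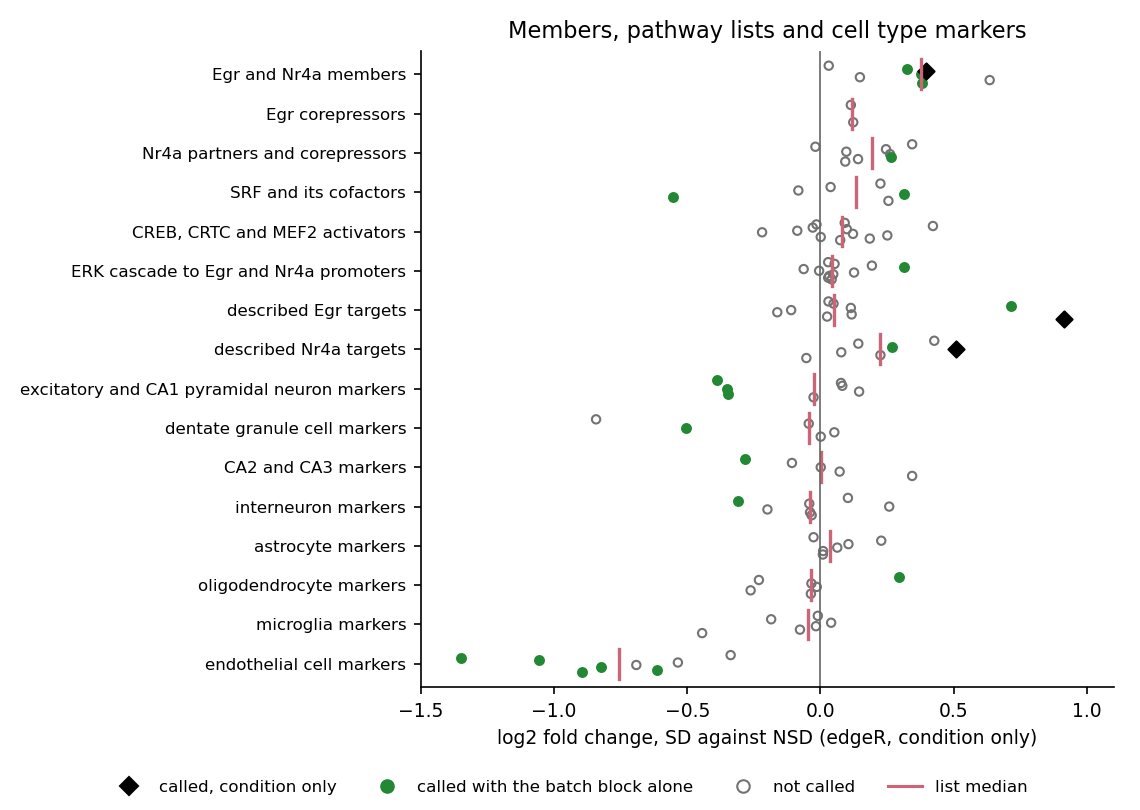
Each point is 1 gene, placed by its log2 fold change of SD against NSD with condition as the only term, with diamonds for genes called in that fit, filled circles for genes called with the batch block alone, open circles for the rest and a vertical bar at each list's median. The members sit to the right of 0, Arc and Fosl2 are the diamonds beyond Nr4a1, and the 8 endothelial markers all sit to the left of 0.

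In bulk libraries such as these, fewer cells of a type and less RNA per cell cannot be told apart. All 7 markers of excitatory and CA1 pyramidal neurons were detected, with Camk2a between 4090 and 4379 CPM. Their summed level was 6258 and 6588 CPM in NSD and 6041 and 6504 CPM in SD, and with the block Wfs1, Fibcd1 and Neurod6 were called lower (log2 fold changes -0.40, -0.34 and -0.34, edgeR adjusted p = 0.00246, 0.00286 and 0.00249). The blocked fit called 8.47% of all genes and 3.29% of protein-coding genes lower. The other 4 markers were not called, with Camk2a at -0.026, Slc17a7 at 0.077, Pou3f1 at 0.082 and Mpped1 at 0.14 in log2 fold change, and the median of the list was -0.026. All 8 endothelial markers were below 0 (median log2 fold change -0.76, 7 without overlap between groups, an order found downward in 20% of protein-coding genes). They summed to 46.0 and 63.7 CPM in NSD and to 38.9 and 27.1 CPM in SD, and edgeR with condition alone called 0 of them (6 had an unadjusted p under 0.05), DESeq2 called 4 and the blocked fit 5, among them Flt1, Tek, Tie1 and Cdh5 (log2 fold changes between -0.82 and -1.35 with condition alone). DESeq2 called 5.79% of all genes and 1.79% of protein-coding genes lower. Microglia markers summed to between 57.6 and 72.8 CPM in NSD and between 55.3 and 72.4 CPM in SD, astrocyte markers to between 436 and 477 and between 452 and 489.9 CPM, oligodendrocyte markers to between 1539 and 1862 and between 1713 and 1799 CPM, and interneuron markers to between 820.2 and 860.2 and between 754 and 845 CPM. Markers of dentate granule cells summed to between 85.0 and 93.3 CPM in NSD and between 68.8 and 76.5 CPM in SD. Among them Lct stood at 52.5 and 53.3 CPM in NSD and at 31.7 and 43.0 CPM in SD. The log2 fold changes of Prox1, C1ql2 and Dsp were -0.044, 0.001 and 0.052, that of the scarce Tdo2 (0.13 to 0.41 CPM) was -0.84, and the list median was -0.044. Markers of CA2 and CA3 summed to between 70.8 and 72.8 CPM in NSD and between 63.3 and 64.2 CPM in SD, with Iyd under the count filter and no tested marker at 0. The lower CA2 and CA3 sum in SD came from Rgs14, since the other 4 tested summed to 16.3 and 16.1 CPM in NSD and 18.2 and 18.1 CPM in SD and the median log2 fold change of the list was 0.001. In the blocked fit the granule cell marker Lct (-0.50 with condition alone), the CA2 marker Rgs14 (-0.28) and the interneuron gene Sst (-0.31) were also called lower. Of these DESeq2 called Lct alone. The groups of Sst overlapped, with 120 and 106 CPM in NSD and 109 and 73.6 CPM in SD. The other interneuron markers were not called, with Pvalb at 0.26, Vip at 0.10, Gad1 at -0.033, Gad2 at -0.039, Slc32a1 at -0.042 and Npy at -0.20 in log2 fold change. The median of that list was -0.039. The part that these cell types play in the levels of the Egr and Nr4a genes was not tested.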

How the data were processed

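RNA bound to HA-tagged ribosomes was sequenced in 4 libraries, 2 NSD and 2 SD. Reads were trimmed by the authors, mapped to GRCm39 with STAR and assigned to Ensembl genes in Partek Flow by expectation-maximization, and they deposited unnormalized estimated counts for 28193 genes, of which 55.6% have a fractional value. Here the counts were rounded, the 22338 genes above 5 counts in each library were kept, and SD was compared with NSD across all of them with edgeR 4.0.16 in R 4.3.3 (TMM factors, quasi-likelihood fit, Benjamini-Hochberg adjustment). The cutoffs for a call (adjusted p 0.05, 1.2-fold) were those of the study's DESeq2 analysis. Within-batch and profile values were log2 CPM with prior count 2, and intervals used 8.38 degrees of freedom. Libraries held 153511705 to 195910235 counts, and each group's spread rests on 2 pools.

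The labels give each replicate number as a batch number, so the numbers pair the libraries. After group means were removed, libraries sharing a number correlated at 0.178 over the genes tested and at 0.276 over the 9015 with a mean of at least 10 CPM. What the batch number stands for is not given in the sources used here. Alternatives were this replicate block, DESeq2 1.42.0, edgeR with size factors from DESeq2, filterByExpr, no filter on counts, protein-coding genes alone, no fold change threshold, each library left out and each batch alone; canonical transcript length, the mean profile without Egr2 and the CA2 and CA3 sum without Rgs14 were added after the values had been seen. Levels per kilobase, overlaps and promoters used GENCODE M39 on GRCm39, a later annotation than the one counted. The members and gene lists were chosen with earlier results of these data known. Beside the members, the genes named were Fos, Rpl22, up to 4 genes per list called with or without the block, by smallest p with the block, and the 5 nearest in profile. Uncalled genes of some lists were named beside these after their values had been seen. Some results are not reported here. Enrichment was not computed.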

Additional observations from a re-analysis of the deposited data

How the results depend on the processing

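Of the 7 genes, 1 was called with condition as the only term (4 at an unadjusted edgeR p under 0.05). The count was 4 with the replicate block and with DESeq2, and 0 without a count filter, with filterByExpr and with protein-coding genes only, each of these with 4 at an unadjusted edgeR p under 0.05. It ran from 0 to 4 with a library left out, 0 without NSD library 1, 3 without NSD library 2 and 4 whichever SD library was left out, where Egr2 replaced Nr4a2 when SD library 2 was left out. The median log2 fold change of the members stayed between 0.27 and 0.51. Over all genes tested the count of calls was 692, and 2559 with the replicate block, 1963 with DESeq2, 130 without a count filter, 1 with filterByExpr, 90 with protein-coding genes only and between 231 and 2244 with a library left out. With condition as the only term the share of higher calls was 24.9% over all genes and 63.8% over protein-coding genes. The balance of higher and lower calls shifted when a library was left out. In the lists of regulators, targets and markers 2 genes were called, 20 with the replicate block, 17 with DESeq2, 1 without a count filter, 0 with filterByExpr (31 at an unadjusted p under 0.05), 1 with protein-coding genes only and between 4 and 14 with a library left out. These lists held from 2 to 12 tested genes each. With filterByExpr, 4410 of all 24323 genes tested had an unadjusted edgeR p under 0.05. Whether the list counts exceed the shares over all genes was not tested. Egr2 reversed without SD library 1, at a log2 fold change of -0.11, and it ran up to 1.14 without SD library 2. The cause of these shifts was not tested, beyond the number of genes or libraries that a setting enters.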
